A study of Mus musculus with 6 samples.

Results

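The red cell genes described here are those of the 2 chains of adult haemoglobin (Hbb-bs, Hbb-bt, Hba-a1, Hba-a2) and 4 further genes of the red cell lineage (Alas2, Slc4a1, Klf1, Ahsp). They were chosen by symbol, as indicators of the blood that whole lung contains. Of the 8 symbols, 6 were found, in 7 of the 20494 rows of the authors' deposited table, because the symbol Hba-a2 stands in 2 rows. No row carries the symbol Hba-a1 or Ahsp, and these genes are not analysed here under their own names. RNA of whole lung was sequenced from untreated male C57BL/6 mice of 4 months, 3 carrying a knockout of lincRNA-Cox2 and 3 wild type. LincRNA-Cox2 is a noncoding RNA whose gene lies beside Ptgs2. The sources used here do not say how the knockout allele was made, and the labels name no step that clears blood from the lung vessels.

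Mature mammalian red cells have lost their nucleus and make no new RNA. The youngest circulating red cells, the reticulocytes, still carry messenger RNA from their time in the bone marrow, most of it globin. Haemoglobin joins alpha chains (Hba genes), beta chains (Hbb genes) and haem, and Alas2 is the erythroid form of the first enzyme of haem synthesis. Slc4a1 encodes band 3, the anion exchanger that also anchors the red cell skeleton. Klf1 is a transcription factor of red cell precursors that binds CACCC elements, and Ahsp is a chaperone of free alpha chains. In RNA of a whole organ, fewer cells of a type and less RNA per cell cannot be told apart.

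The globin rows have to be read with their sequences, because each pair of globin genes is nearly identical. On mm10, Hba-a1 (chr11:32283511-32284465) and Hba-a2 (chr11:32296489-32297298) lie on the plus strand of the alpha cluster. Their coding sequences of 429 bases differ at 1 base, C381T, in exon 3, with positions counted from 1 at the A of the start codon and Hba-a1 given first. Hbb-bs (chr7:103826534-103828096) and Hbb-bt (chr7:103812524-103813996) lie on the minus strand of the beta cluster, and their coding sequences of 444 bases also differ at 1 base, C417T, in exon 3, with Hbb-bs first. The 50 coding bases around each difference are given on the strand of the gene, with the differing base in capitals.
Hba-a1, chr11:32284318-32284367: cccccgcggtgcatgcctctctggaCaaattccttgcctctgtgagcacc
Hba-a2, chr11:32297135-32297184: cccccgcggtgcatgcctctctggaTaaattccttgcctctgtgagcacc
Hbb-bs, chr7:103826668-103826717: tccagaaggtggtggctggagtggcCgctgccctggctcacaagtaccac
Hbb-bt, chr7:103812659-103812708: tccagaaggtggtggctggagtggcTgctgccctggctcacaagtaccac

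The reads were 50 bases long, from both ends of a fragment. Of the 380 windows of 50 bases in the alpha coding sequence, 331 (87.1%) are the same in Hba-a1 and Hba-a2. Of the 395 windows in the beta coding sequence, 367 (92.9%) are the same in Hbb-bs and Hbb-bt. Over whole transcripts, 86.9% of the windows of Hba-a2 are found in Hba-a1 and 67.5% of those of Hba-a1 in Hba-a2. In the beta pair, 65.8% of the windows of Hbb-bs are found in Hbb-bt and 58.3% of those of Hbb-bt in Hbb-bs. How the authors counted reads that fit both copies is not given in the sources used here, so the split of reads within each pair is uncertain and the sum of a pair is firmer than either row. The row identifiers follow genome order in 99.3% of 17271 neighbouring pairs of rows. In the alpha cluster that order is Hba-x (kgCluster3656), Hba-a2 (kgCluster3657), Hbq1b (kgCluster3658), Hba-a2 (kgCluster3659) and Hbq1a (kgCluster3660). The annotation of the same stretch reads Hba-x, Hba-a1, Hbq1b, Hba-a2 and Hbq1a. The names of the table are kept here, and the 2 rows are told apart by their identifiers.

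The promoters of the globin genes and of Alas2 are shown as background. Whether their letters bear on the level or the variation of these rows was not tested. The sequences are from RefSeq (GRCm38.p6), which held promoters of 6 of the 8 symbols, and give the 110 bases before each start of transcription in RefSeq. The gene ends given here for mm10 are those of GENCODE, whose outermost start can lie further upstream, so that the windows of Hbb-bs and Hba-a1 lie within the GENCODE gene and those of Hbb-bt, Hba-a2 and Alas2 overlap its first bases. Capitals mark 4 short motifs searched on both strands of the 250 bases before the start. The first is the core GATA of the sites bound by GATA factors, printed as TATC where it lies on the other strand. A further motif is the CACCC box bound by factors such as Klf1, which reads GGGTG on the other strand. The CCAAT box reads ATTGG there. The last, ATATAA, is a form of the TATA box and was not found on the other strand of these windows.
Hbb-bs, chr7:103827929-103828038, minus strand: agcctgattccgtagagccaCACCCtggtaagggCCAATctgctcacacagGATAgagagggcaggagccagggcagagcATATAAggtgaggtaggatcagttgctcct
Hbb-bt, chr7:103813924-103814033, minus strand: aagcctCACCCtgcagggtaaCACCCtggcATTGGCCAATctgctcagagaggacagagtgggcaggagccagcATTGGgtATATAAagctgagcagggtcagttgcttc
Hba-a1, chr11:32283562-32283671, plus strand: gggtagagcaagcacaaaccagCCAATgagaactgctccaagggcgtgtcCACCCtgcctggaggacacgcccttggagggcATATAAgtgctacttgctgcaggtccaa
Hba-a2, chr11:32296382-32296491, plus strand: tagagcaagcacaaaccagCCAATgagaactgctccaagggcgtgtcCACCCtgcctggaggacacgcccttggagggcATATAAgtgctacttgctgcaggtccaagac
Alas2, chrX:150547307-150547416, plus strand: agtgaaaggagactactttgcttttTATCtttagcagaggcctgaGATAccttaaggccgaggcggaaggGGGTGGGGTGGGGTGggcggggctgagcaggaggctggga

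Each of the 4 globin promoters held ATATAA, beginning 28 to 31 bases before the start, CCAAT on the gene's strand 75 to 91 bases before it, and at least 1 CACCC. In Hbb-bt a CCAAT on the gene's strand directly follows one on the other strand, and they share no base. The Alas2 window held neither ATATAA nor CCAAT. It held 3 CACCC on the other strand, beginning 30, 35 and 40 bases before the start, and GATA once on each strand. The Klf1 window, not printed here, held CACCC and CCAAT and no ATATAA. Among 32851 RefSeq promoters, ATATAA was found in 9.10%, CCAAT in 33.9%, CACCC in 52.0% and GATA in 53.6% of windows of the same length. These matches describe letters and show no binding.

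None of the red cell genes was called different between the genotypes. In the authors' deposited table, 6 of the 7 rows have an adjusted p, and 0 of these 6 were under 0.05, where 1.09% of all 16902 rows with an adjusted p were called (DESeq2), 0.592% higher and 0.497% lower in the knockout. At an adjusted p under 0.1 it was also 0 of 6, where 1.77% of all rows passed. By unadjusted p, 1 of the 6, Slc4a1, was under 0.05 in the authors' deposited table, against 8.47% of all rows, or 4.43% counting only rows that were higher in the knockout as Slc4a1 was. The knockout mean was above the wild type mean in each of the 6 rows, as in 49.4% of all rows. The rows share their source cells and in part their reads, so they are not 6 independent observations. The median log2 ratio of the 6 rows was 0.17, from 0.10 to 0.76, and the median of all tested rows was -0.00131. With the authors' shrunken log2 fold change in place of the ratio, the median of the 6 rows was 0.11.

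For each genotype the table holds a mean normalized count, and it holds no value of a single library. A normalized count is the count of a gene divided by the size factor of its library. The standard error of each log2 ratio was worked back from the authors' Wald statistic, and the 95% intervals are normal intervals from these errors, unadjusted.

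Hbb-bs, the main adult beta globin row, was the highest of the red cell rows. The authors' mean normalized count of Hbb-bs was 35182.5 in wild type and 37793.5 in the knockout, a ratio of 1.07 (95% interval 0.944 to 1.22). Its adjusted p in the authors' deposited table was 0.925. Hbb-bs ranked 48 by wild type mean among all 20494 rows. For Hbb-bt the authors' means were 15218 and 16697, a ratio of 1.10 (0.937 to 1.28), with an adjusted p of 0.910 in the authors' deposited table.

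The alpha rows had ratios a little above those of the beta rows. For kgCluster3657 the authors' means of Hba-a2 were 26074 in wild type and 29071 in the knockout, a ratio of 1.11 (0.990 to 1.26). For kgCluster3659 they were 7861 and 8972, a ratio of 1.14 (0.988 to 1.32). The unadjusted p of these rows was 0.0738 and 0.0719 and the adjusted p 0.681 and 0.674 in the authors' deposited table. All 4 globin intervals included 1, and their upper ends lay between 1.22 and 1.32.

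The balance of the chains was close to the same in both genotypes. Summed over rows, the alpha globin mean was 0.673 of the beta globin mean in wild type and 0.698 in the knockout. Hbb-bs stood at 2.31 times Hbb-bt in wild type and 2.26 times in the knockout, and kgCluster3657 at 3.32 and 3.24 times kgCluster3659. These ratios have no error, since they come from group means alone. The 4 globin rows made up 0.227% of all normalized counts in wild type and 0.251% in the knockout. Per kilobase of exons, the level of Hbb-bs was 45810 normalized counts in wild type and 49210 in the knockout, and that of Hbb-bt 21647 and 23751. No level per length is given for the alpha rows, since it is not settled whether kgCluster3657 should take the length of Hba-a1 or of Hba-a2.

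**Figure D1:**
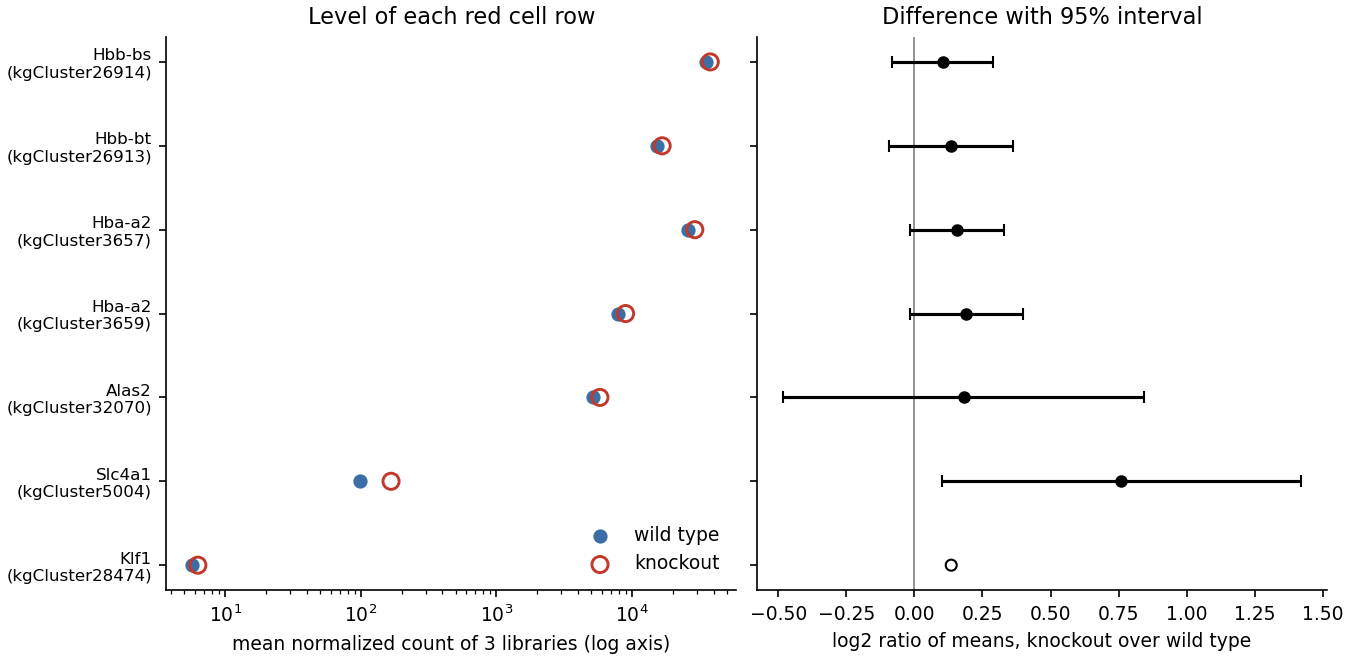
Left, the authors' mean normalized count of each red cell row in wild type (filled) and knockout (open) lung, on a log axis. Right, the log2 ratio of these means with its 95% interval; the intervals of Alas2 and Slc4a1 are several times wider than those of the globins, and Klf1 is drawn without an interval.

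Alas2 lay below the globins in level and its ratio was measured far less precisely. Its authors' mean was 5118 in wild type and 5800 in the knockout, a ratio of 1.13 (0.716 to 1.79), with an adjusted p of 0.997 in the authors' deposited table. The log2 ratio of 0.18 had a standard error of 0.338, against 0.0878 to 0.116 for the globin rows. The shrunken log2 fold change in the authors' deposited table was 0.04. Alas2 (chrX:150547375-150570638, plus strand) overlaps Apex2 and Mir3620 on the other strand. The kit named in the labels does not mark strand. The authors' means of Apex2 were 291 and 274, far under those of Alas2. Hbb-bs was 6.87 times Alas2 in wild type and 6.52 times in the knockout.

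Slc4a1 (chr11:102348824-102366203, minus strand) had the largest ratio of the red cell rows. Its authors' mean was 98.6 in wild type and 167 in the knockout, a ratio of 1.69 (1.07 to 2.67), with an unadjusted p of 0.0237 and an adjusted p of 0.445 in the authors' deposited table. The wild type reads could be worked back and were 118, 95 and 82 in libraries A, B and C. For the knockout, 4 sets of reads fit the printed values. The group means alone left 141 sets for both genotypes together, and the refit that narrowed them was checked on genes of lower mean. They were 132, 307 and 70 in the first, 207, 225 and 77 in the second, 282, 143 and 84 in the third, and 357, 61 and 91 in the last. In each of the 4 sets library A of the knockout lay above all wild type libraries and library C lay below wild type library A, so the groups overlapped. The reads of no knockout library were fixed by the data, and those of library B ran from 61 to 307 over the 4 sets.

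Klf1 (chr8:84901928-84905291, plus strand) was close to the lower limit of what these libraries can show. Its reads were 7, 3 and 7 in wild type libraries A, B and C and 8, 5 and 6 in knockout libraries A, B and C. As normalized counts these were 6.89, 2.98 and 7.28 in wild type and 7.80, 4.90 and 6.14 in the knockout, and the groups overlapped. The mean was 5.72 ± 2.38 (SD, n = 3) in wild type and 6.28 ± 1.46 (SD, n = 3) in the knockout, with an exact 2-sided permutation p of 0.8, where 3 against 3 libraries cannot go below 0.1. In the authors' deposited table its unadjusted p was 0.864 and it has no adjusted p. For 18 low genes of the erythroid lists with fixed reads, normalized counts were compared with those of Klf1 over the 6 libraries. The Pearson r ran from 0.787 (Rhd) to -0.716 (Kel). After Rhd, the highest included Trim58 (0.592), Trim10 (0.501) and Hbq1a (0.390). It was negative for Gata1 (-0.211) and Hemgn (-0.322), among others. These values describe 6 libraries with few reads each, and counts this low leave them imprecise.

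The rows differed in how much their counts varied between libraries of the same genotype. This variation was worked back from the authors' standard errors, pools both genotypes and is moderated by their model. It is given as a percent of the mean and set beside rows whose mean lies within 2-fold. For Alas2 it was 28.7%, which is 5.53 times the median of 2277 rows of like level and above 99.6% of them. For Slc4a1 it was 27.1%, which is 1.98 times the median of 1444 rows of like level and above 97.8% of them. For the 4 globin rows it was 7.43% to 9.82%, 1.38 to 1.88 times the median of their level and above 89.8% to 96.2% of such rows. Of the 6 rows with an estimate, 4 were above 95% of rows of like level.

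**Figure D2:**
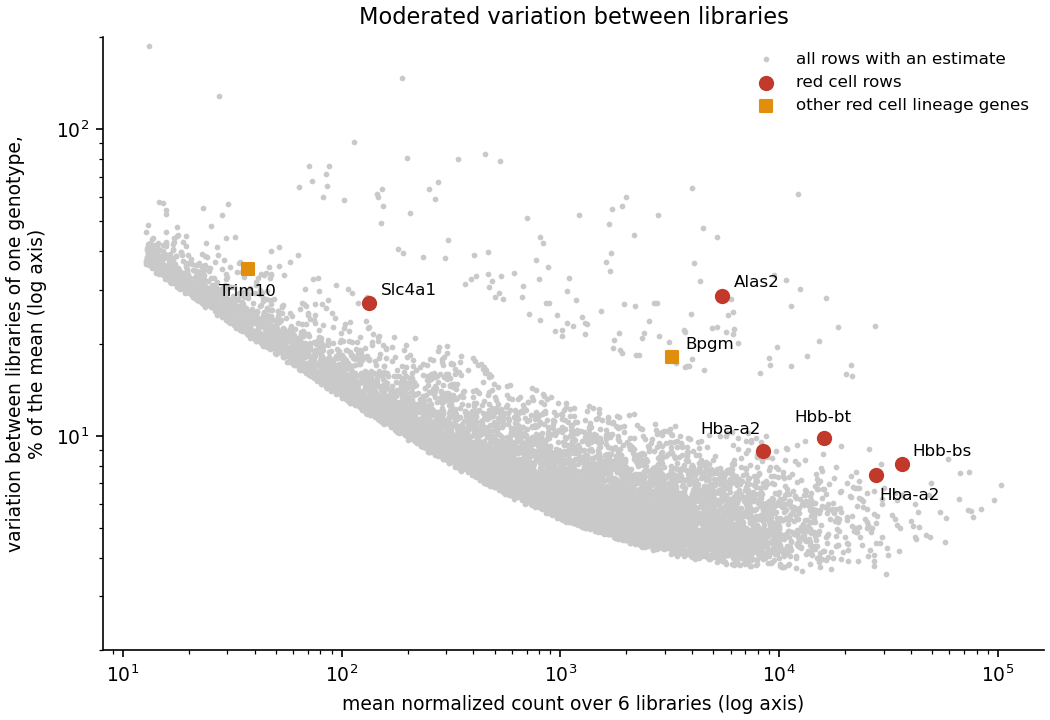
Variation between libraries of one genotype, as a percent of the mean, against the mean normalized count over 6 libraries, both on log axes. Grey points are the 10423 rows with an estimate; Alas2 (28.7%) and Slc4a1 (27.1%) stand above the mass of points of their level, with Bpgm and Trim10 of the same lineage marked beside them, while the 4 globin rows lie at 7.43% to 9.82%.

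Among other genes of the lineage wide variation was seen in some. Bpgm, which makes the allosteric regulator of haemoglobin, varied by 18.0% (median of its level 5.36%), above 98.6% of rows of like level. Of 11 erythroid regulators 0 were above 95% of rows of like level, and of 13 rows of haem synthesis and iron uptake 1 was, Steap3. Alad and Fech, enzymes of haem synthesis present in most tissues, varied by 4.99% and 6.60%, where the medians of their levels were 5.78% and 5.45%. The platelet list had 3 of 8 above that mark, Ppbp, Gp9 and Tubb1, and the endothelial list 0 of 7. Bpgm, Steap3, Hemgn, Alad, Ppbp, Gp9, Tubb1, Trim10, Trim58, Hbq1b, Gata1, the embryonic globins, Hmox1, Ltf, Fpr2 and Birc5 were named after their values were seen.

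The reads of single libraries show where this variation lay in the low genes. Trim10, an erythroid TRIM protein needed for late red cell differentiation, had reads of 34, 29 and 23 in wild type and 83, 25 and 32 in the knockout. Only library A of the knockout stood above the rest, and the other libraries of the groups overlapped. Its ratio was 1.60 (exact 2-sided permutation p = 0.5) and 0.996 without that library. Its adjusted p was 0.807 in the authors' deposited table. Library A held 58.6% of the normalized counts of Trim10 in the knockout, where the median over 1127 genes with both group means between 20 and 62 and fixed reads was 33.4%.

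Hbq1a, a theta globin gene of the alpha cluster, had reads of 9, 7 and 8 in wild type and 24, 16 and 6 in the knockout, a ratio of 1.87 that was 1.36 without library A (exact 2-sided permutation p = 0.4 with it). Its neighbour Hbq1b had 9, 12 and 14 in wild type and 13, 18 and 9 in the knockout. Trim58, a late erythroid ubiquitin ligase, had 3, 2 and 2 in wild type and 8, 1 and 3 in the knockout. Hemgn, a nuclear protein of blood cell precursors, had 3, 9 and 3 in wild type and 9, 4 and 3 in the knockout. Gata1, the master regulator of the lineage, had 62, 60 and 32 in wild type and 64, 54 and 55 in the knockout, a ratio of 1.11. In Gata1 library A of the knockout lay close to wild type libraries A and B, and in Hbq1b it lay between the other knockout libraries.

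Pklr, the pyruvate kinase of liver and red cells, had reads of 44, 43 and 58 in wild type and 76, 139 and 63 in the knockout. Its groups did not overlap, with a ratio of 1.88 and an exact 2-sided permutation p of 0.1, the smallest that 3 against 3 libraries can give. The adjusted p was 0.206 in the authors' deposited table. In Pklr the highest library was B and not A. The group means alone left 4 sets of reads for Pklr, of which this one matched the printed fold change and error.

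**Figure D3:**
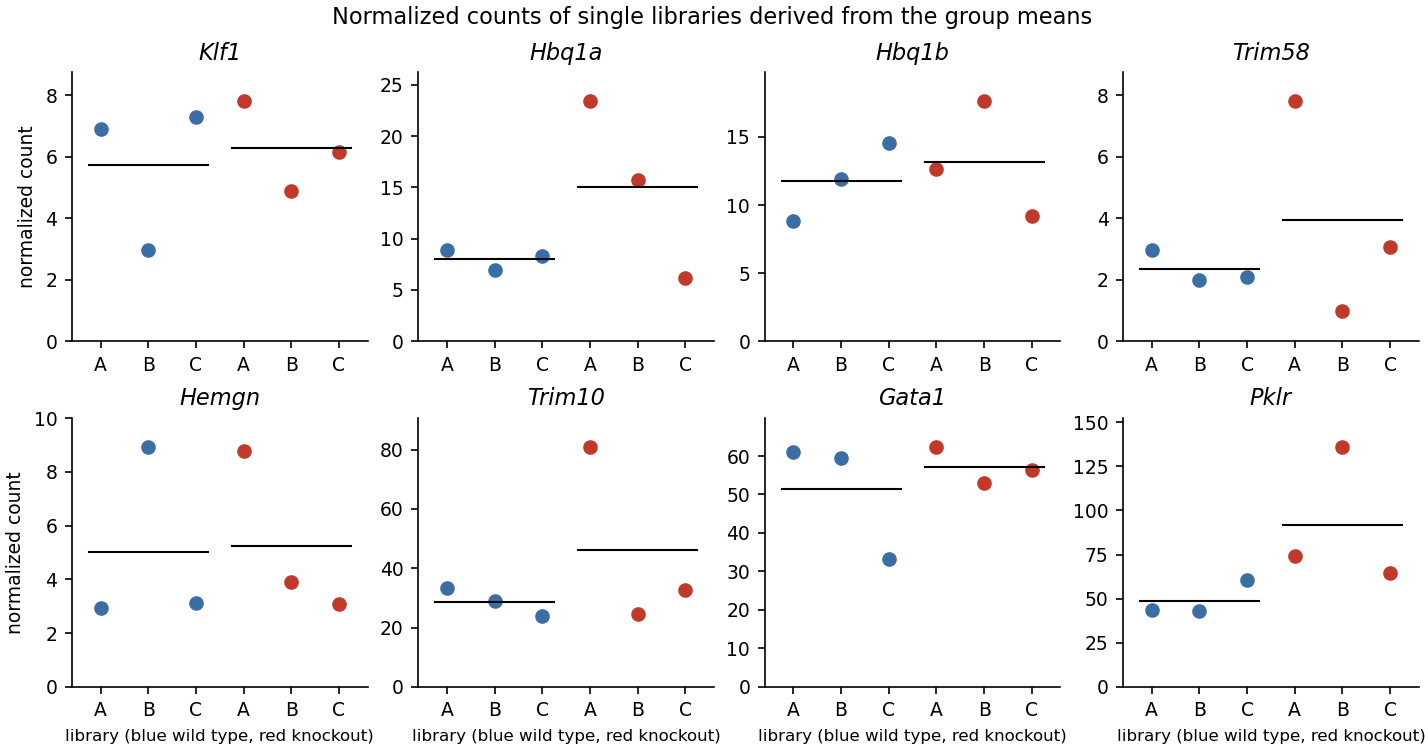
Normalized counts of 8 low red cell lineage genes in the single libraries of each genotype (wild type blue, knockout red). Lines mark each group mean and axes start from 0. The counts were worked back from the printed group means, and for Pklr also from the printed fold change and error. Library A of the knockout stands apart in Trim10, while Gata1 overlaps between the groups and Pklr is highest in library B.

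Libraries A, B and C are names within each genotype and are not tied to single mice. The normalized means sum to 3.71e+07 in wild type and 3.68e+07 in the knockout, and the relative size factors of the 6 libraries lie between 0.961 and 1.03, so depth differed little between them. The targeted gene Lincrna-cox2 had authors' means of 311 in wild type and 0.666 in the knockout, with an adjusted p of 4.05e-91 in the authors' deposited table. The tissue showed its lung markers at high levels, with authors' means of the surfactant gene Sftpc of 82187 and 83359.

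Beyond the chosen genes, no gene was called by the authors' DESeq2 test in the lists of red cell membrane, regulators, enzymes and alpha globin neighbours. Of 12 tested genes of the red cell membrane and skeleton, 0 were called, 5 had a higher and 7 a lower knockout mean, and the median log2 ratio was -0.03. At an unadjusted p under 0.05, which 8.47% of all rows passed, there was 1, which was lower. This was Sptb, the beta chain of spectrin, with authors' means of 447 and 359 with an unadjusted p of 0.0354 and an adjusted p of 0.527 in the authors' deposited table. Of 15 tested erythroid regulators 0 were called and 0 had an unadjusted p under 0.05, with a median of -0.03. Of 16 tested red cell enzymes and genes of late maturation 0 were called, with a median of 0.04, and 2 were higher at an unadjusted p under 0.05, Pklr and Fam46c. Fam46c, a poly(A) polymerase gene, had authors' means of 1514 and 1756 and an adjusted p of 0.206 in the authors' deposited table. The lists include genes far above Gata1 (51.3), with authors' wild type means of 4810 for Ldb1, 6458 for Stom and 15410 for Cat. Which cells these counts came from was not tested, so the medians are not a measure of red cell content. The list of alpha globin neighbours held 6 genes, among them Nprl3, whose introns hold the alpha globin enhancers. Polr3k of this list lies on chr2 on mm10, away from the alpha cluster on chr11, and is not a neighbour there. The median of the 6 genes, Polr3k included, was -0.06, and 0 were called or had an unadjusted p under 0.05.

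The other globins of the list were far lower than the adult ones. The embryonic genes Hbb-y, Hbb-bh1 and Hba-x had from 0 to 4 reads per library. The globins of other tissues were present, with authors' means of 1873 and 1510 for the muscle globin Mb, 1533 and 1369 for Cygb and 61.7 and 99.9 for Ngb. None of the 3 was called by DESeq2. At an unadjusted p under 0.05, which 8.47% of all rows passed, there was 1. Their smallest adjusted p was 0.310, for Ngb, in the authors' deposited table.

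In the list of haem synthesis and iron uptake, 1 of 17 tested genes was called, where 1.09% of all rows were. The median log2 ratio was 0.04. The called gene was Slc11a2 (chr15:100387898-100425072, minus strand), the divalent metal transporter that carries iron across membranes. Its authors' means were 2426 in wild type and 2911 in the knockout, a ratio of 1.20 (1.09 to 1.33) with an adjusted p of 0.0356 in the authors' deposited table. Tfrc, the transferrin receptor, had authors' means of 4456 and 5144, a ratio of 1.15 (1.02 to 1.31), with an adjusted p of 0.460 in the authors' deposited table. Alas1, the form of the first haem enzyme used outside the red cell lineage, had authors' means of 13963 and 13651, a ratio of 0.978, and was not called.

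In the list for the handling of haem and iron released from red cells, 1 of 12 tested genes was called, Slc40a1. Of all rows 1.09% were called. The list had a median log2 ratio of 0.03. Slc40a1 (chr1:45908068-45926523, minus strand) encodes ferroportin, the exporter of iron from cells. Its authors' means were 617 and 825, a ratio of 1.34 (1.18 to 1.52), with an adjusted p of 0.00205 in the authors' deposited table. Hmox1, the inducible enzyme that breaks down haem, had authors' means of 1518 and 1669 and an adjusted p of 0.862 in the authors' deposited table. The ferritin genes Fth1 and Ftl1 and the haemoglobin scavenger gene Hp had ratios of 1.03, 1.02 and 1.07 and were not called.

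Of the lists for other blood cells, the neutrophil list held the most called genes. Of its 14 tested genes, 10 were called higher in the knockout and 0 lower, where 0.592% of all rows were called higher, with a median log2 ratio of 0.62. The knockout mean was higher in 12 of them and lower in 2, Fpr2 and Ltf. For Ltf the authors' means were 2449 in wild type and 1366 in the knockout. Cxcr2, the chemokine receptor of neutrophils, had authors' means of 365 and 732 and an adjusted p of 7.24e-10 in the authors' deposited table. The neutrophil gene Stfa2l1 had reads of 37, 32 and 38 in wild type and 80, 81 and 96 in the knockout. All 3 knockout libraries were above all wild type libraries, and library A was not the highest. Of 13 tested platelet genes 1 was called, Rab27b, with authors' means of 1935 and 2368 and an adjusted p of 0.00522 in the authors' deposited table, and the list's median was 0.04. Of 9 tested B and T cell genes 0 were called by DESeq2, 2 were lower at an unadjusted p under 0.05, and the median was -0.12. Of 10 endothelial genes 0 were called, 1 was lower at an unadjusted p under 0.05, and the median was -0.08. Among all 16902 rows with an adjusted p, 682 were lower at that unadjusted threshold.

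**Figure D4:**
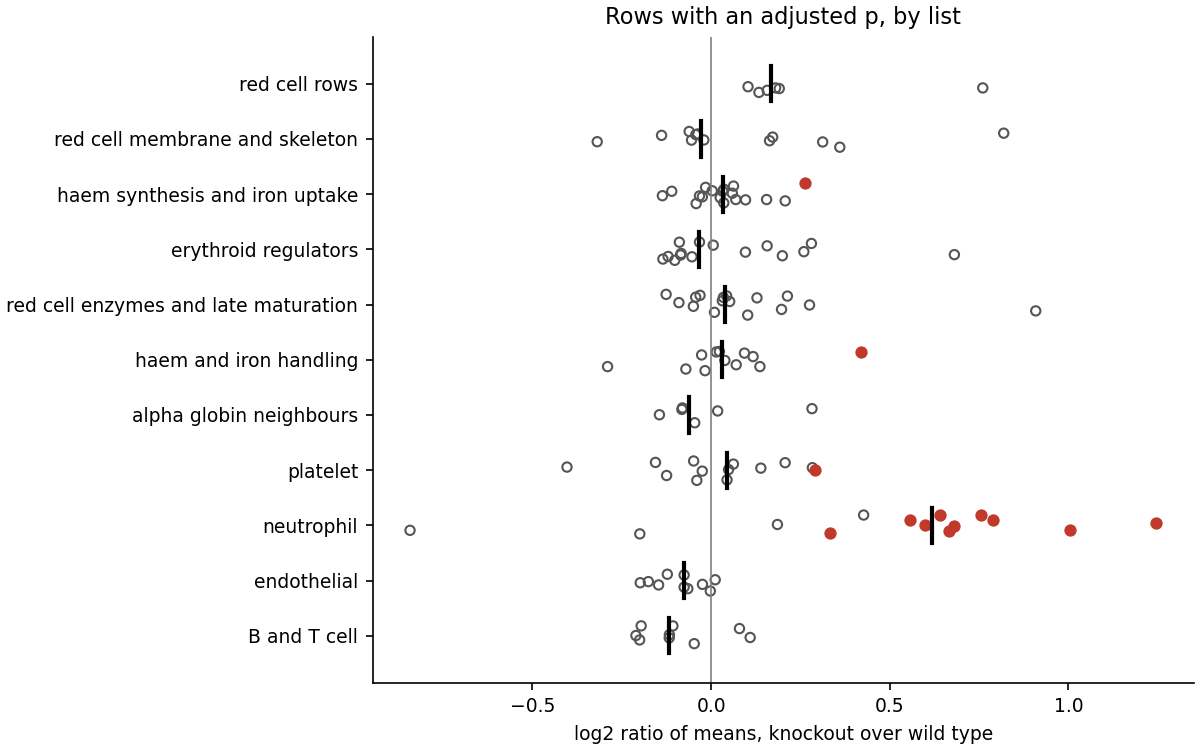
Log2 ratio (knockout over wild type) of the authors' means for each row with an adjusted p, by list; filled points passed an adjusted p of 0.05, open points did not, and bars mark medians. The red cell rows lie from 0.10 to 0.76 with none called, while 10 of 14 neutrophil genes were called higher.

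Summed over the list, Ltf included, the neutrophil means were 14048 in wild type and 18446 in the knockout. The platelet means were 9433 and 10120, beside 84335 and 92534 for the globin rows. The part of blood left in the vessels in any of these values was not tested.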

How the data were processed

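The members and lists were chosen with earlier results of these data known. Per the labels' protocols, 500 ng of RNA went into each TruSeq v2 library. Without roles, mm10, DESeq2, STAR 2.5.1b, Bowtie2, bedtools and SAMtools are named in the submitters' processing notes. The counting rule is not given in the sources used here.

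Per the file headers, the authors deposited for each row group means as a signal in units of normalized counts, and a shrunken log2 fold change with its standard error. The Wald statistic, a score, the p-value and its adjusted value were also deposited. A row was called at an adjusted p under 0.05. No row with a mean under 12.76 has an adjusted p. The table holds no counts of libraries, so the authors' own comparison was used and no count model was fitted. The authors' p-values test the genotype difference against the variation between these libraries, as moderated by their model.

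The standard error of a log2 ratio is that ratio divided by the Wald statistic, for rows with a statistic beyond 0.5 in size. The reads of single libraries were worked back because a group mean is a sum of 3 whole reads, each times a fixed value. Each of the 4901 means of the wild type, and each of the 4877 of the knockout, that lie above 0 and at most at 40 fit exactly 1 set. Where several sets fit, a refit of the shrunken model kept those matching the printed fold change and error within a relative error of 1e-05. This match held for 398 of 399 genes with known reads, some of which also set the strength of shrinkage in the refit. Their group means were lower than those of Slc4a1 and Pklr. For the listed gene Birc5 (mean 103) the refit kept 0 of 360 sets, so it can also lose the true set. On simulated data the true set was kept for 100% of 400 low genes and was the only set for 99% of them. For 30 genes of middle level, whose means alone seldom fix the reads, the true set was also kept for 100% and was the only set for 43.3%. The simulated fold changes and errors came from the same model as the refit, so the true set was bound to be kept. That 100% therefore does not test the refit against the authors' values. Genes were placed with GENCODE M21. Named genes are all members, called list members, otherwise up to 4 of highest mean and, in the lineage lists, up to 4 of largest Wald statistic, and the 5 genes most like Klf1. Python 3.11.15, numpy 2.4.6 and scipy 1.17.1 were used. Alternatives were other thresholds, a mean of at least 50, other scalings and lengths, and each library left out. Some listed genes count in the totals of their lists and their own values are not reported here.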

Additional observations from a re-analysis of the deposited data

How the results depend on the processing

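At an unadjusted p under 0.05, 1 of the 6 red cell rows and 23 of 141 tested genes of the other lists passed, against 0 and 13 at the adjusted threshold. Of all rows, 8.47% passed the unadjusted and 1.09% the adjusted threshold. Of the 13 called genes, 10 were in the neutrophil list. At an adjusted p under 0.1, 0 red cell rows passed. The limit of a mean of at least 50 removed none of the 6 red cell rows, so it could not change their result. The median log2 ratio of the red cell rows was 0.11 with shrunken fold changes and 0.17 when centred on all tested rows. Per kilobase of the longest transcript, Hbb-bs stood at 56023 normalized counts in wild type and 60181 in the knockout. Leaving out 1 library moved the log2 ratio of Klf1 between -0.16 and 0.32. Without library A of the knockout, a check chosen after seeing the data, the log2 ratio of Trim10 went from 0.67 to -0.01. The calls could not be refitted without a library, since high rows have no library values. No paired analysis was possible because the authors' table holds group means, and the derived libraries carry no replicate number. A 3 against 3 permutation test cannot go below 0.1.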
